A study of Homo sapiens with 4 samples.

Results

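The genes described here are the human SR protein and hnRNP splicing factor genes, taken from a gene-level RNA-seq table by their names alone. A gene was included if it is annotated as protein-coding and its symbol is SRSF followed by a number, begins with HNRNP, or is 1 of TRA2A, TRA2B, PTBP1 to PTBP3, SRRM1 to SRRM4 and SYNCRIP. The symbol rule matched 174 of 60671 gene IDs, and 125 of these were not protein-coding (123 pseudogenes and 2 other non-coding genes), which left 49 genes. Of the 49, 44 had enough reads to be tested. The 5 that did not were HNRNPCL1, with 1 read in 1 of the 4 libraries, and HNRNPCL2, HNRNPCL3, HNRNPCL4 and the readthrough gene HNRNPUL2-BSCL2, with 0 reads in all libraries. A count of 0 does not exclude an expected level of up to 3 reads per library.

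The RNA came from SK-N-BE(2), an established MYCN-amplified human neuroblastoma cell line, without further treatment or time course. One group carried a negative-control short hairpin RNA (shNC) and the other a short hairpin RNA against METTL14 (shMETTL14), so all cells compared carried a hairpin. Per the methods of the study, hairpins were delivered by lentivirus and the transduced cells were selected with puromycin into stable lines. More than 1 METTL14 hairpin was made, and the labels do not say which was sequenced. Each group had 2 libraries, and the comparison asks how the transcript levels of these splicing factors differ when METTL14 is depleted. METTL14 is the RNA-binding partner of the catalytic subunit METTL3 in the methyltransferase that deposits N6-methyladenosine (m6A) on RNA.

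SR proteins carry 1 or more RNA recognition motifs and a tail rich in arginine-serine dipeptides. They bind exonic enhancer sequences and recruit U1 and U2 components to nearby splice sites, and phosphorylation of the tail by the SRPK and CLK kinases controls their import and release from nuclear speckles. The hnRNPs coat nascent transcripts and often silence exons, so that SR proteins and hnRNPs compete over many alternative exons. Many genes of both families limit their own expression by splicing in a "poison" exon, which sends the transcript to nonsense-mediated decay. In neural cells, a decline of PTBP1 and a rise of PTBP2, SRRM3 and SRRM4 switch exon and microexon programmes.

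The libraries held between 18925786 and 19886214 reads assigned to genes. METTL14 had 753 and 754 reads in the shNC libraries and 303 and 321 in the shMETTL14 libraries, a fall to 41.7% of the control level (log2 fold change -1.26, edgeR adjusted p = 3.65e-11, SE 0.0832). The noradrenergic neuroblastoma markers HAND2, GATA3, ISL1, TH, DBH and MYCN were detected in all libraries, but not at equal levels. Of 10 such markers examined, 10 were called, 3 higher and 7 lower in shMETTL14, with a median log2 fold change of -0.23. Among those named, DBH changed most (-0.79), while ISL1 and MYCN rose (0.28 each). All 8 fibroblast markers examined were detected as well, none of them at 0, with a summed level of 673.5 to 674.7 CPM in shNC (the counts-per-million scale, with TMM library scaling) and 779.5 to 792.1 CPM in shMETTL14. Of the 8, 2 were called higher and 4 lower, with a median log2 fold change of -0.11. THY1 carried the rise of the sum (4348 and 4199 reads in shNC, 7112 and 7045 in shMETTL14), while PDGFRA (-2.13), COL3A1 (-0.79) and COL1A1 (-0.48) fell on the log2 scale. Their part in the results below was not tested. The labels do not say that the libraries of a group came from separate cultures, so the p-values measure only the spread between these libraries, which may be technical. With 2 libraries on each side the smallest p of an exact two-sided permutation test is 0.333, so tests rest on the edgeR model fitted across 16309 genes, with a gene called when its Benjamini-Hochberg adjusted p was under 0.05. In bulk RNA of this kind, fewer cells expressing a gene and less RNA per cell cannot be told apart.

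The promoters below are those of the genes with the largest fold changes in the results that follow, SRRM4, HNRNPAB and SRRM3. Each line gives the 250 bases before the RefSeq start of the gene on GRCh38.p14, plus strand, 5′ to 3′, with matches to GGGCGG (the GC box, written CCGCCC where it lies on the other strand), CCAAT and TATAAA in capitals.
SRRM4, chr12:118981291-118981540: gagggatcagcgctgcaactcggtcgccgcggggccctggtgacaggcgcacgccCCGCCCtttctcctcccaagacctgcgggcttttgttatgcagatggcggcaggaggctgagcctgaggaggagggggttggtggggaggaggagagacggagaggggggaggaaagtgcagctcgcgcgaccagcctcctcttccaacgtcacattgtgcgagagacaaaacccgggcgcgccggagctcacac
HNRNPAB, chr5:178204283-178204532: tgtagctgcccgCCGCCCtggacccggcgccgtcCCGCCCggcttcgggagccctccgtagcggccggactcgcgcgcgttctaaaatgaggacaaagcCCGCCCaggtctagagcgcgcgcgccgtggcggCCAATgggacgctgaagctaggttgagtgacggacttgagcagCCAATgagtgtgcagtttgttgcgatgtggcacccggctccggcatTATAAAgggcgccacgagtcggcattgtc
SRRM3, chr7:76201646-76201895: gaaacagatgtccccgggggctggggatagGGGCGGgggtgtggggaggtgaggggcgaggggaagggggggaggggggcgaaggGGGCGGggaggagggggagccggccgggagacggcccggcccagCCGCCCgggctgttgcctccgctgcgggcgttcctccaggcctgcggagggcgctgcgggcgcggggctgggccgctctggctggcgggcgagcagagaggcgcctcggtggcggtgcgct
The HNRNPAB window held 6 matches, namely 3 GC boxes, a pair of CCAAT boxes and a TATAAA whose first base lies at position -29 from the start. The SRRM3 window held 3 GC boxes and the SRRM4 window 1. GENCODE release 29 places the starts of SRRM4 (118981495) and HNRNPAB (178204507) inside these windows.

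Promoter windows were matched for 40 of the 44 tested genes, all but SRSF2, TRA2A, HNRNPA1L3 and HNRNPA1. At least 1 GC box was present in 70.0% of the 40, against 42.6% of all 35116 promoters in the table, and a CCAAT in 42.5% against 32.0%. The ETS core CCGGAAG occurred in 12.5% against 8.52%, TATAAA in 12.5% against 10.7%, and the E-box CACGTG, which MYC family proteins bind, in 6 of the 40 against 6.34%. All 6 genes with the E-box (HNRNPA3, HNRNPD, HNRNPDL, HNRNPH2, HNRNPH3 and HNRNPM) were hnRNP genes. Of these 6, 1 was called higher, beside 22 of the 40 with a window and 27.2% of all genes tested. With 6 genes, no trait of E-box genes is read from that count. The palindrome CTCGCGAG was found in 4 of the 40 windows, those of HNRNPK, HNRNPUL1, SRSF10 and SRSF4, against 0.874% of all promoters. Both strands were searched, a match to CTCGCGAG was counted once because it reads the same on either strand, and a match describes letters in the window, not a bound site. The 35116 promoters were not limited to tested or protein-coding genes. These shares therefore do not set the splicing factor genes apart from other expressed genes.

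Across the whole set the shifts were small and mostly upward. Of the 44 tested genes 28 were called (63.6%), against 52.5% of all genes tested. In 24 the level was higher in shMETTL14 (54.5%, against 27.2% of all genes) and in 4 it was lower (9.09%, against 25.3%). Most of these genes are abundant, and abundant genes are called more often. Among genes whose mean log2 CPM was 5 or more, 67.9% were called, 41.7% higher and 26.2% lower. The 40 splicing factor genes at that level had 62.5% called, with 52.5% higher and 4 genes lower. The median log2 fold change of the 44 was 0.11, beside -0.00095 for all genes tested, while their median absolute change, 0.14, was below the 0.30 of all genes. No called gene changed by 2-fold or more, and 3 changed by at least 1.5-fold. The groups did not overlap in CPM for 38 of the 44, against 75.5% of all genes.

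**Figure D1:**
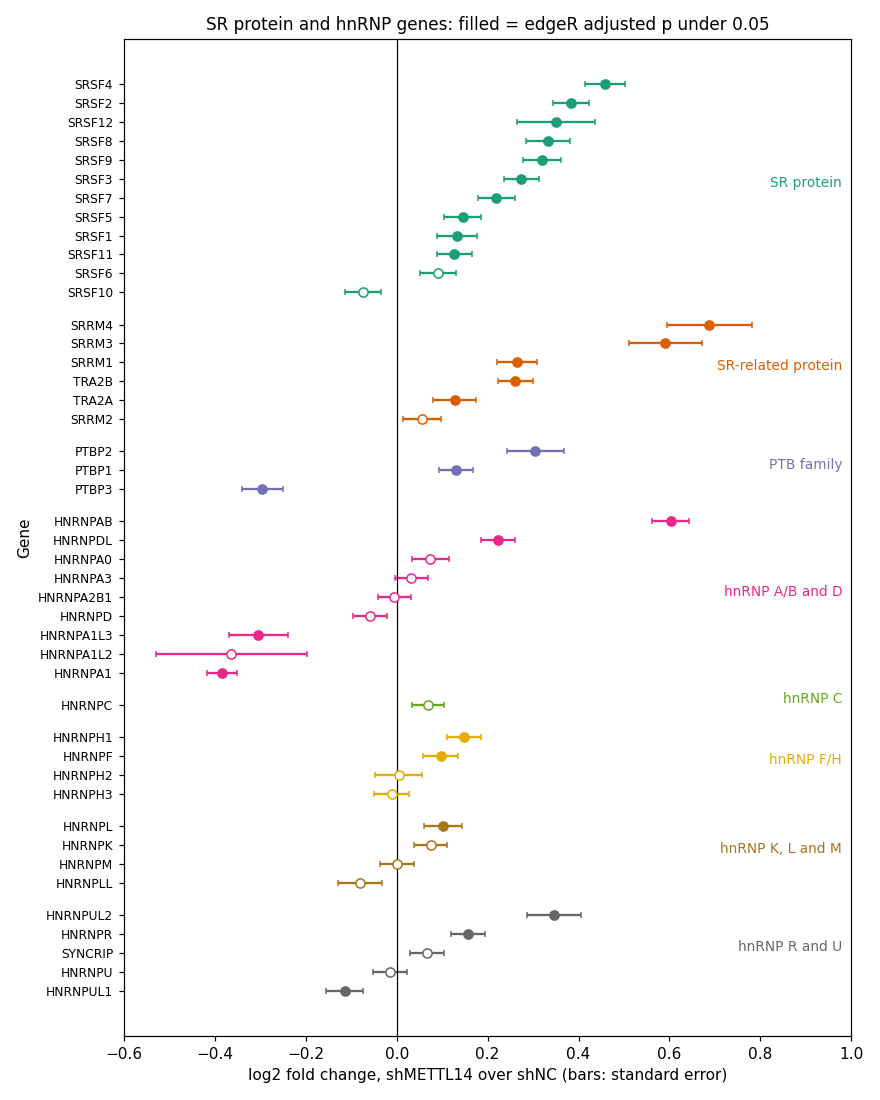
Log2 fold change of shMETTL14 over shNC (x axis) for the 44 tested genes, grouped by protein class. Bars show the standard error derived from the edgeR F statistic, and filled points are genes called by edgeR at an adjusted p under 0.05. SR and SR-related genes lie mainly to the right of 0, up to 0.69 for SRRM4, while hnRNP genes lie on both sides, down to -0.38 for HNRNPA1; the calls of the increases of 0.16 or less were lost with upper quartile scaling.

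The calls of the smaller shifts moved with how the libraries were scaled. With upper quartile scaling in place of the trimmed mean of M values (TMM), 15 of the genes were called higher and 8 lower, against 21.8% and 30.4% of all genes. DESeq2 called 20 higher and 3 lower, against 19.8% and 17.1% of all genes. The median of all genes moved by the same amount, to -0.069 with upper quartile scaling, and the distance between the median of the splicing factor genes and that of all genes was 0.115 with each of the 4 scalings. The 9 increases lost with upper quartile scaling were those of HNRNPR, HNRNPH1, SRSF5, SRSF1, PTBP1, TRA2A, SRSF11, HNRNPL and HNRNPF, which were the called increases of 0.16 or less on the log2 scale.

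The SR proteins in the strict sense, SRSF1 to SRSF12, were mostly higher in shMETTL14, with 10 of 12 called higher and 0 lower by edgeR (0 lower at an unadjusted p under 0.05, and 0 by DESeq2). The share higher was 83.3%, against 27.2% of all genes and 41.7% of genes whose mean log2 CPM was 5 or more. Under upper quartile scaling 7 were called higher and 1, SRSF10, lower. Their median log2 fold change was 0.25. The groups did not overlap in any of the 12, SRSF6 and SRSF10 included, which were not called. Over all genes tested the groups did not overlap in 75.5%. Summed over the 12 genes, the level was 2549 ± 42.3 CPM in shNC and 2948 ± 15.3 CPM in shMETTL14 (SD, n = 2), or 115.7% of control.

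SRSF4, a large SR protein with an extended arginine-serine tail (ENSG00000116350, chromosome 1, 29147743 to 29181987, minus strand of GRCh38), had 2137 and 2024 reads in shNC and 2890 and 2787 in shMETTL14. Both shMETTL14 libraries were above both shNC libraries, and the log2 fold change was 0.46 (edgeR adjusted p = 1.35e-08, SE 0.0437). SRSF2, the enhancer-binding protein also known as SC35 (ENSG00000161547, chromosome 17, 76734115 to 76737374, minus strand), had 5381 and 5444 reads in shNC and 7082 and 6951 in shMETTL14. It rose by 0.38 on the log2 scale (edgeR adjusted p = 4.86e-08, SE 0.0400), and 36.7% of its merged exons overlap MFSD11 on the opposite strand. The strand setting of the counting is not given in the sources used here, so reads of such overlapping genes cannot be assigned with certainty.

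SRSF8, a copy of SRSF2 that arose by retrotransposition, had 1552 and 1589 reads in shNC and 1978 and 1954 in shMETTL14, a log2 fold change of 0.33 (edgeR adjusted p = 5.74e-06, SE 0.0488). The log2 ratio of SRSF2 to SRSF8 was 1.79 and 1.78 in the shNC libraries and 1.84 and 1.83 in the shMETTL14 libraries, so the copies rose by nearly the same factor. Such log2 ratios are of scaled read counts and carry the lengths of both genes, so only their change between groups is read. Reads that match both copies could not be told apart here. SRSF12, a low-abundance relative of SRSF10, had 392 and 389 reads in shNC and 484 and 505 in shMETTL14 (log2 fold change 0.35, edgeR adjusted p = 0.00160, SE 0.0856).

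SRSF3, the smallest SR protein, which takes part in mRNA export and binds the nuclear m6A reader YTHDC1, had 8974 and 9015 reads in shNC and 10859 and 10754 in shMETTL14. Its log2 fold change was 0.27 (edgeR adjusted p = 3.07e-06, SE 0.0382). SRSF10, which YTHDC1 also binds and which acts as a repressor when dephosphorylated, was lower in both shMETTL14 libraries. It had 5117 and 5132 reads in shNC and 4879 and 4796 in shMETTL14, with a log2 fold change of -0.07 (SE 0.0401) that was not called (edgeR adjusted p = 0.127). It was called lower under upper quartile scaling (-0.14), when only library size was used (-0.12) and without shNC library 1 (-0.11).

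The other SR proteins spread between these values. SRSF9 stood at 124.7% of control, SRSF7 at 116.4%, SRSF5 at 110.6%, SRSF1 at 109.6% and SRSF11 at 109.2%, all called, and SRSF6 at 106.5%, not called (edgeR adjusted p = 0.0637). The calls of SRSF5, SRSF1 and SRSF11 were lost with upper quartile scaling. SRSF1, the first SR protein described, and its closest relative SRSF9 differed in the size of the shift. Their log2 ratio was -0.42 and -0.37 in the shNC libraries and -0.61 and -0.55 in the shMETTL14 libraries. Both genes overlap others, SRSF1 over 60.7% of its merged exons, mainly with AC015813.2, and SRSF9 over 46.2%, mainly with GATC on the opposite strand.

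**Figure D2:**
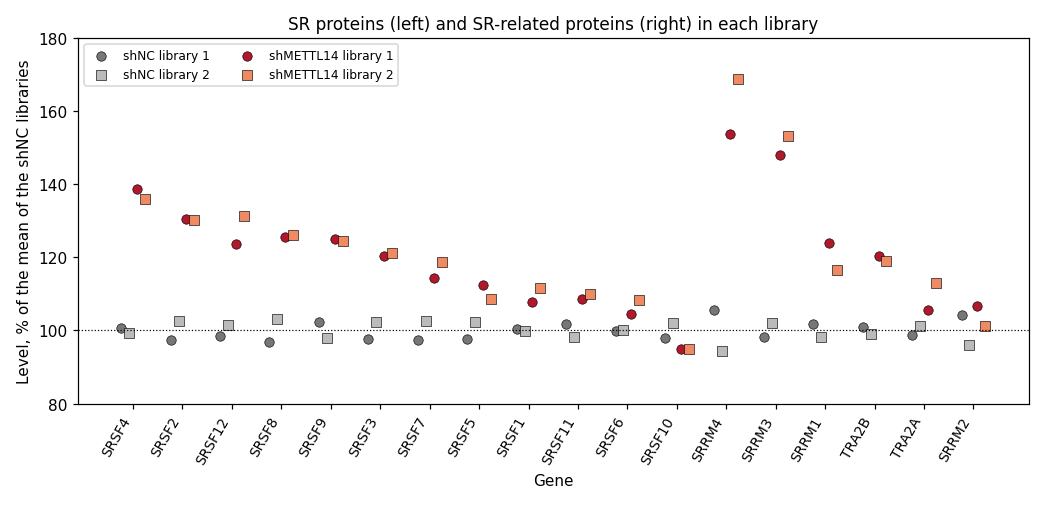
Level of each SR protein gene (left) and SR-related gene (right) in each library, as a percentage of the mean of the shNC libraries (CPM, TMM scaling; the y axis starts at 80%, circles are library 1 and squares library 2 of each group). Both shMETTL14 libraries lie above both shNC libraries in every gene except SRSF10, where both lie below, and SRRM2, where the groups overlap; SRRM4 reaches 153.7% and 168.8%.

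Among the 6 SR-related genes 5 were called higher and 0 lower by edgeR (0 at an unadjusted p under 0.05, and 0 by DESeq2), with a median log2 fold change of 0.26. The share higher was 83.3%, against 27.2% of all genes and 41.7% of genes whose mean log2 CPM was 5 or more. The largest increases of the whole set included the neural pair. SRRM4 (nSR100), which activates neural microexons (ENSG00000139767, chromosome 12, 118981495 to 119163051, plus strand), had 336 and 288 reads in shNC and 480 and 518 in shMETTL14. Its log2 fold change was 0.69 (edgeR adjusted p = 2.18e-06, SE 0.0935). SRRM3, which shares the microexon programme (ENSG00000177679, chromosome 7, 76201900 to 76287288, plus strand), had 408 and 407 reads in shNC and 605 and 615 in shMETTL14. Its log2 fold change was 0.59 (edgeR adjusted p = 2.45e-06, SE 0.0811). Their level nevertheless stayed low, as the per-length values below show.

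TRA2A and TRA2B, which bind GAA-rich enhancers, stood at 109.3% and 119.8% of control, and both were called, the call of TRA2A being lost with upper quartile scaling. SRRM1, a coactivator that bridges exon-bound SR proteins and the spliceosome, stood at 120.1% and was called. SRRM2, a large scaffold of nuclear speckles, was not called (log2 fold change 0.06, edgeR adjusted p = 0.280, SE 0.0420). Its groups overlapped, at 95.9% and 104.1% of the control mean in shNC and 101.1% and 106.7% in shMETTL14.

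The 3 PTB family genes, which bind pyrimidine tracts and repress exons, did not move in 1 direction. PTBP1, the repressor of neuronal exons in non-neuronal cells, had 9152 and 8701 reads in shNC and 9843 and 9583 in shMETTL14. Its log2 fold change of 0.13 (edgeR adjusted p = 0.00521, SE 0.0372) was not called under upper quartile scaling (0.06) or when only library size was used (0.09). PTBP2, the neural paralogue, had 955 and 846 reads in shNC and 1123 and 1087 in shMETTL14, a log2 fold change of 0.31 (edgeR adjusted p = 0.000261, SE 0.0617).

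PTBP3, the paralogue first described in blood cells as ROD1 (ENSG00000119314, chromosome 9, 112217716 to 112333667, minus strand), fell instead. It had 2242 and 2160 reads in shNC and 1830 and 1734 in shMETTL14, and its log2 fold change was -0.30 (edgeR adjusted p = 1.24e-05, SE 0.0459). The log2 ratio of PTBP1 to PTBP3 was 2.03 and 2.01 in the shNC libraries and 2.43 and 2.47 in the shMETTL14 libraries. The ratio of PTBP1 to PTBP2 went the other way, from 3.26 and 3.36 to 3.13 and 3.14. Per length of merged exons PTBP1 remained the most abundant of the 3, at 217.9 TPM in shNC (a level per length, defined further on) against 44.9 for PTBP3 and 11.7 for PTBP2.

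Of 23 tested hnRNP genes, SYNCRIP included, 10 were called (43.5%, against 52.5% of all genes), 7 of them higher (30.4%, against 27.2% of all genes and 41.7% of abundant genes) and 3 lower (against 25.3% and 26.2%). The share called higher was thus near that of all genes, and the median log2 fold change was 0.03. Their summed level was 14297 ± 122 CPM in shNC and 14081 ± 133 CPM in shMETTL14 (SD, n = 2), or 98.5% of control. HNRNPA1 alone made up a large part of that sum, and without it the sum was 104.9% of control, from 11050 ± 114 to 11593 ± 89.95 CPM.

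HNRNPA1, a silencer of exons that antagonizes SRSF1 in splice site choice (ENSG00000135486, chromosome 12, 54280193 to 54287088, plus strand), was the most abundant gene of the set. It had 64833 and 62068 reads in shNC and 49298 and 47299 in shMETTL14, so that both shMETTL14 libraries lay at 77.5% and 75.7% of the control mean. The log2 fold change of -0.38 (edgeR adjusted p = 3.37e-09, SE 0.0336) was the largest decrease among the called genes. The HNRNPA1-like copy HNRNPA1L3 on chromosome 16 fell too, with 1139 and 1037 reads in shNC and 840 and 910 in shMETTL14 (log2 fold change -0.30, edgeR adjusted p = 0.000421, SE 0.0644). The copy HNRNPA1L2 on chromosome 13 had 149 and 118 reads against 112 and 94 and was not called (log2 fold change -0.36, edgeR adjusted p = 0.0716, SE 0.166).

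Whether reads of the copies come from HNRNPA1 itself was not tested. The table lists 74 HNRNPA1 pseudogenes, of which 6 reached 10 reads, and together they held 1857 and 2010 reads in shNC and 1408 and 1315 in shMETTL14, 2.95% of the HNRNPA1 reads. HNRNPA1P7 had a log2 fold change of -0.52 (edgeR adjusted p = 1.62e-06, SE 0.0686) and HNRNPA1P10 of -0.52 (edgeR adjusted p = 6.63e-05, SE 0.0935), both chosen for naming after their values were seen. The sum over all HNRNPA1 pseudogenes had a log2 ratio of -0.50. The pseudogenes of HNRNPA3, HNRNPC and HNRNPK had log2 ratios of -0.12, 0.16 and -0.04, beside 0.03, 0.07 and 0.07 for their parents, none of which was called, and held 1.41%, 1.09% and 1.15% of their parents' reads.

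**Figure D3:**
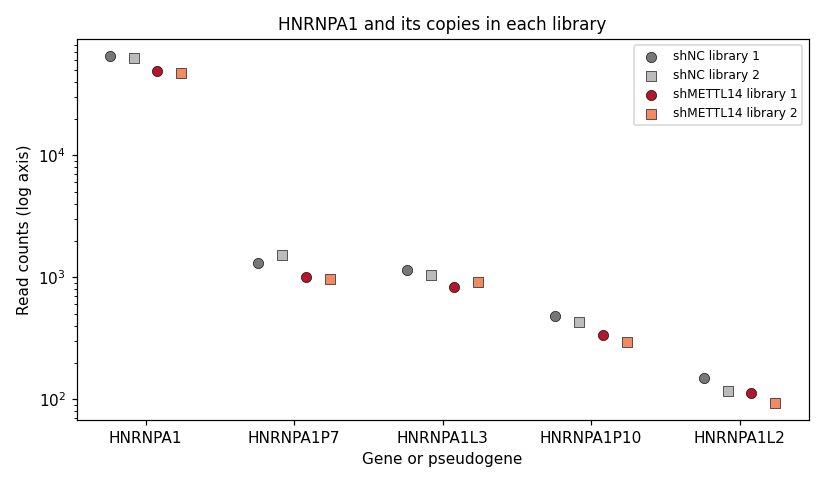
Read counts (log y axis) of HNRNPA1, the protein-coding copies HNRNPA1L3 and HNRNPA1L2 and the 2 pseudogenes with the most reads in each library, circles for library 1 and squares for library 2. In each of the 5 both shMETTL14 libraries lie below both shNC libraries, though the loci differ in depth from 64833 reads (HNRNPA1) to under 150 (HNRNPA1L2).

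None of the close relatives HNRNPA2B1, HNRNPA3 and HNRNPA0 was called. HNRNPA2B1, which has been proposed as a nuclear m6A reader, had 32829 and 30918 reads in shNC and 32544 and 30561 in shMETTL14. Its log2 fold change was -0.01 (edgeR adjusted p = 0.917, SE 0.0360), and its sign changed with the filter on low counts and with the libraries used. HNRNPA3 and HNRNPA0 stood at 102.3% and 105.3% of control. The log2 ratio of HNRNPA1 to HNRNPA2B1 was 0.98 and 1.01 in the shNC libraries and 0.60 and 0.63 in the shMETTL14 libraries.

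HNRNPAB, a DNA- and RNA-binding hnRNP that takes part in mRNA transport (ENSG00000197451, chromosome 5, 178204507 to 178211163, plus strand), had the largest increase of the hnRNP genes. It had 7204 and 6518 reads in shNC and 10286 and 10402 in shMETTL14, that is 350.9 ± 14.9 and 532.9 ± 10.7 CPM (SD, n = 2). The log2 fold change was 0.60 (edgeR adjusted p = 4.50e-11, SE 0.0402). Even so, 23.1% of all tested genes had a larger absolute log2 fold change than HNRNPAB. Of its relatives, HNRNPDL stood at 116.7% of control and was called, and HNRNPD (AUF1), which binds AU-rich elements and promotes mRNA decay, stood at 96.0% and was not. The log2 ratio of HNRNPD to HNRNPAB was 0.90 and 0.93 in the shNC libraries and 0.27 and 0.22 in the shMETTL14 libraries.

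HNRNPC, which binds uridine tracts that m6A can expose by loosening RNA structure, had 18598 and 17905 reads in shNC and 19172 and 18860 in shMETTL14. The groups did not overlap, yet the log2 fold change of 0.07 (SE 0.0354) was not called (edgeR adjusted p = 0.109). Its replicate libraries were close together, at 99.9% and 100.1% of the control mean in shNC and 104.8% and 104.9% in shMETTL14.

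In the F/H class, whose proteins bind G tracts, HNRNPH1 (110.7% of control) and HNRNPF (107.0%) were called higher, while HNRNPH2 (100.3%) and HNRNPH3 (99.2%) were not called. The call of HNRNPF was lost in 8 of the 11 other analyses, and that of HNRNPH1 under upper quartile scaling and without shMETTL14 library 1. HNRNPH1 and its X-linked relative HNRNPH2 had a log2 ratio of 3.32 and 3.30 in shNC and 3.51 and 3.41 in shMETTL14. Among HNRNPK, HNRNPL, HNRNPLL and HNRNPM only HNRNPL was called, at 107.3% of control, and that call was lost in 10 of the 11 other analyses. HNRNPK, which binds cytosine-rich RNA and DNA, stood at 105.3%, HNRNPM at 100.1% and HNRNPLL, a regulator of CD45 splicing in lymphocytes, at 94.6%.

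The U-like pair moved apart. HNRNPUL2 (ENSG00000214753, chromosome 11, 62712630 to 62727472, minus strand), which takes part in the response to DNA breaks, had 922 and 869 reads in shNC and 1117 and 1145 in shMETTL14. Its log2 fold change was 0.35 (edgeR adjusted p = 4.40e-05, SE 0.0597), and 44.2% of its merged exons lie within the readthrough gene HNRNPUL2-BSCL2, which had 0 reads. The merged exons of HNRNPUL2-BSCL2 overlap other genes over 100% of their length, mainly HNRNPUL2. How reads in shared exons were counted is not given, so the 0 does not show that the readthrough is absent. HNRNPUL1 had 4727 and 4353 reads in shNC and 4196 and 4134 in shMETTL14, a log2 fold change of -0.11 (edgeR adjusted p = 0.0221, SE 0.0406). Its call was lost with DESeq2, with no filter on low counts, and without shNC library 1 or either shMETTL14 library. HNRNPU itself, the scaffold attachment factor that organizes chromatin, stood at 99.0% of control, HNRNPR at 111.5% and SYNCRIP (hnRNP Q) at 104.8%, and of these HNRNPR was called.

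Only 4 of the 44 tested genes were called lower (9.09%, against 25.3% of all genes), which limits how many pairs can hold opposite calls. Of 19 pairs of related proteins examined, 2 had calls in opposite directions. The share among unrelated pairs was not computed, so this count does not describe a trait of paralogues. The pairs were PTBP1 with PTBP3 and HNRNPUL1 with HNRNPUL2, and neither was such a pair in every analysis. The call of PTBP1 was lost in 2 of the 11 other analyses and that of HNRNPUL1 in 5. The gap between members of a pair, which does not depend on the scaling, was widest for HNRNPD and HNRNPAB (0.66 on the log2 scale), HNRNPUL1 and HNRNPUL2 (0.46), PTBP1 and PTBP3 (0.43) and SRSF10 and SRSF12 (0.42).

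Levels can be compared between genes only per length. In transcripts-per-million units (TPM, reads per kilobase of merged exons, scaled to the same total in each library), the 44 genes spanned from 2094 ± 19.7 TPM for HNRNPA1 to 5.92 ± 0.518 TPM for SRRM4 in shNC (SD, n = 2). After HNRNPA1 came HNRNPK (629 ± 2.05), HNRNPA2B1 (578 ± 12.1), HNRNPAB (538 ± 26.5) and HNRNPA3 (436 ± 8.99). HNRNPD (310 ± 10.7), HNRNPF (308 ± 1.04) and SRSF2 (302 ± 8.94) differed by less than the spread between libraries. SRSF2 was the most abundant SR protein gene on this scale, ahead of SRSF7 (224 ± 6.32) and SRSF3 (212 ± 5.23). Merged exons exceed the transcript with the longest coding sequence unevenly. For PTBP2 they measure 12.9 against 3.06 kb, and for PTBP3 8.24 against 7.995 kb. For SRSF2 they measure 3.02 against 2.885 kb, and for SRSF9 3.74 against 1.20 kb. Ranks between genes on this scale, such as those of PTBP2 and SRSF2, thus depend on the length chosen.

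On this scale the lowest levels in shNC were those of the neural regulators SRRM4, SRRM3 (9.97 ± 0.196 TPM) and PTBP2 (11.7 ± 0.751 TPM), followed by SRSF12 (14.4 ± 0.231 TPM). In shMETTL14 these were at 8.82 ± 0.535, 13.9 ± 0.256, 13.4 ± 0.216 and 17.0 ± 0.628 TPM. HNRNPA1 fell to 1483 ± 33.2 TPM and remained the most abundant gene, while HNRNPAB, at 755 ± 11.2 TPM, passed HNRNPK (612 ± 13.9) and HNRNPA2B1 (532 ± 20.0). The TPM scale moved every gene by -0.11 on the log2 scale against TMM-scaled CPM, so that HNRNPL and HNRNPF, called higher, had slightly lower TPM in shMETTL14.

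**Figure D4:**
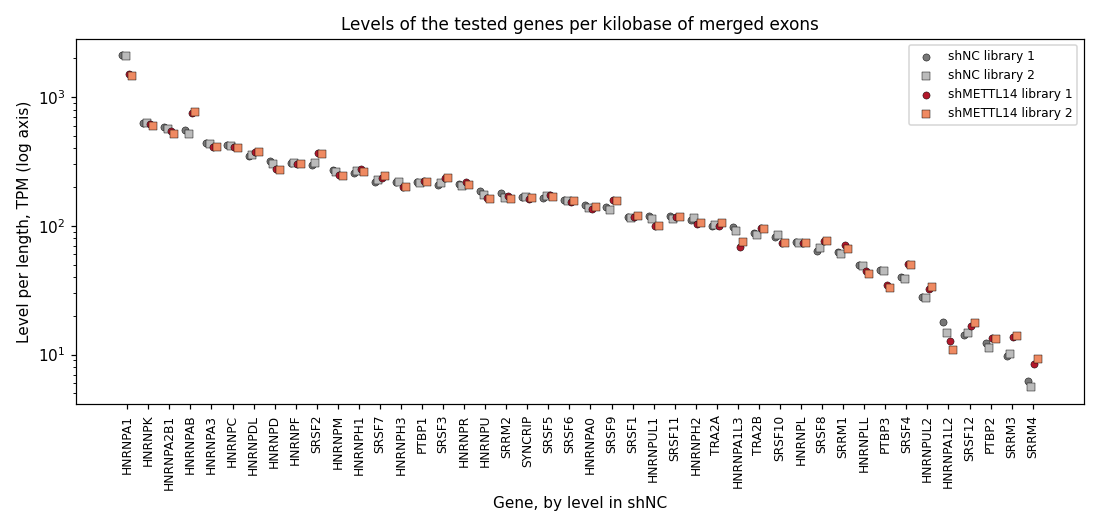
Level per length (TPM, log y axis) of the 44 tested genes in each library, ordered by the mean of the shNC libraries, with circles for library 1 and squares for library 2 of each group. HNRNPA1 leads with 2094 TPM in shNC and 1483 TPM in shMETTL14, and SRRM3 and SRRM4 close the order at 9.97 and 5.92 TPM in shNC.

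Some annotated features differed in share from those of other genes. An annotated transcript of the nonsense-mediated decay type was present for 31 of the 44 (70.5%), against 42.6% of 12809 tested protein-coding genes. It was present for all 12 SR protein genes and for 13 of the 23 tested hnRNP genes, SYNCRIP included (56.5%). The 44 also had more annotated transcripts (median 11 against 8). The protein-coding genes were not matched for this or for abundance. An annotated retained-intron transcript was present for 65.9% against 57.0%. The pentamer GGACT, a common core of m6A sites, occurred at a median of 0.759 per kb of the representative coding transcript against 0.938 per kb. Gene-level counts do not separate productive from poison transcripts, so none of the levels above can be assigned to a protein-coding isoform.

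Genes for the modification and import of SR proteins and hnRNPs held more calls lower than higher. Of 13 genes for SR protein kinases, a phosphatase, its partner and import receptors, 12 were tested, 1 was called higher and 6 lower, with a median log2 fold change of -0.17. Over all genes 27.2% were called higher and 25.3% lower, and over abundant genes 41.7% and 26.2%. SRPK1, the cytoplasmic kinase that phosphorylates SR proteins before import, had 4188 and 4057 reads in shNC and 2465 and 2410 in shMETTL14 (log2 fold change -0.75, edgeR adjusted p = 2.23e-12, SE 0.0416). CLK4, a nuclear SR kinase, had 499 and 513 against 272 and 320 reads (-0.76, edgeR adjusted p = 8.50e-07, SE 0.0971). TNPO1, the import receptor of HNRNPA1 and other hnRNPs, had 8565 and 8678 against 5152 and 4879 reads (-0.77, edgeR adjusted p = 9.91e-13, SE 0.0409).

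The remaining 3 decreases were those of SRPK2 (67.7% of control), PRPF4B (85.0%) and TNPO3 (66.0%), the import receptor of phosphorylated SR proteins. PPP1CA, a catalytic subunit of protein phosphatase 1, was the increase, at 123.0% of control. Opposite-strand genes, mainly CARNS1, overlap 26.9% of its merged exons, so its reads cannot be assigned with certainty. CLK1, CLK2 and CLK3 stood between 102.2% and 103.2% of control and were not called. DYRK1A (105.5%) and PPP1R10 (93.0%, edgeR adjusted p = 0.0501) were not called either, and SRPK3 had too few reads to be tested. The decreases of SRPK1, CLK4 and TNPO1 exceeded in size every change among the 44 splicing factor genes.

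**Figure D5:**
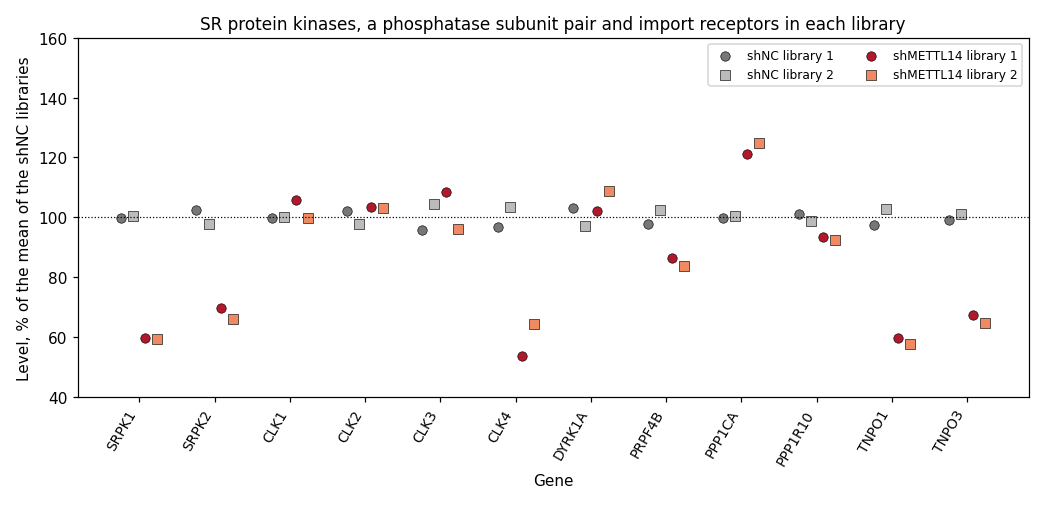
Level of the 12 tested genes for SR protein kinases, phosphatase subunits and import receptors in each library, as a percentage of the mean of the shNC libraries (CPM, TMM scaling; the y axis starts at 40%, circles are library 1 and squares library 2 of each group). SRPK1, SRPK2, CLK4, TNPO1 and TNPO3 lie between 53.6% and 69.6% in the shMETTL14 libraries, while CLK1, CLK2 and CLK3 stay near 100%.

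The core splicing machinery was called higher more often than lower, as were abundant genes as a whole (41.7% higher and 26.2% lower). Of 20 genes for U1, U2 and 3′ splice site factors, 12 were called higher and 2 lower, with a median of 0.22. The leading increases were PHF5A (0.65), SF3B4 (0.54) and SNRPA1 (0.52), all parts of the U2 particle, and the decreases were SF3A2 (-0.20) and SF3B1 (-0.13). U2AF1, which reads the 3′ splice site dinucleotide, had 41 and 342 reads in shNC and 71 and 153 in shMETTL14. It was not called (log2 fold change -0.77, edgeR adjusted p = 0.18, SE 0.474). Its libraries differed too widely within a group for these counts to show its level or a lack of change. Of 20 genes for the U4/U6.U5 tri-snRNP and catalytic steps, 12 were higher and 2 lower, with a median of 0.16. The increases were led by PRPF31 (0.48), EFTUD2 (0.30) and DDX23 (0.26), and the decreases were SNRNP200 (-0.23) and PRPF6 (-0.17). Opposite-strand genes, mainly AC245052.4, overlap 32.0% of the merged exons of PRPF31, so its reads cannot be assigned with certainty.

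Of 37 other alternative splicing regulators 29 were tested, 13 were called higher and 7 lower, with a median of 0.07. The neuronal RNA-binding proteins ELAVL3 (1861 and 1632 reads in shNC, 3844 and 3747 in shMETTL14, log2 fold change 1.13) and NOVA1 (50 and 58 against 109 and 100 reads, 0.96) rose by more than any SR or hnRNP gene. RBFOX1 was called higher from 4 and 0 against 13 and 11 reads. The decreases were led by MBNL3 (-0.45), RBM5 (-0.20) and RBM39 (-0.17). Other genes, mainly RBM5-AS1, overlap 21.2% of the merged exons of RBM5.

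Of 10 nonsense-mediated decay factors 0 were called higher by edgeR (0 at an unadjusted p under 0.05, and 0 by DESeq2) and 4 lower, with a median of -0.10, the leading ones being SMG9 (-0.30), SMG1 (-0.20) and UPF2 (-0.16). Of 13 nuclear m6A genes, METTL14 included, 4 were called higher and 4 lower. WTAP, the adaptor of the methyltransferase, had a log2 fold change of 0.38, METTL16 0.29 and ALKBH5, a demethylase, 0.22, while RBMX, an hnRNP-type protein outside the symbol rule, had -0.28 and VIRMA -0.12. Counts of lists such as these compare with 27.2% higher and 25.3% lower over all genes, or 41.7% and 26.2% over abundant ones, and the lists were drawn up with earlier results of these data known.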

How the data were processed

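The deposited table held unnormalized counts of reads for each Ensembl gene in 4 libraries, as made by the authors. The submitters' processing notes name HISAT2 2.1.0, StringTie 1.3.6, HTSeq 0.13.5 and edgeR with GRCh38, without roles. The annotation release and strand setting are not given in the sources used here. Lines that name no gene (19.1% to 19.9% of counts) were left out of library sizes, and 0 other sample columns were present. Depth was 18925786 to 19886214 counts, and the biological coefficient of variation 3.45%.

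Symbols came from a reference list of gene names, or from GENCODE 29 where that list gave none. Biotypes, coordinates and merged exon lengths came from GENCODE 29 (GRCh38), which held 58453 of 60671 IDs. RefSeq gave the biotypes of IDs outside GENCODE, and the promoters (GRCh38.p14). Counts were tested with edgeR 4.0.16 in R 4.3.3 (TMM, quasi-likelihood F-test, group only, filterByExpr with a minimum count of 10 and total of 15), with Benjamini-Hochberg adjustment over 16309 genes. The SE given with edgeR values is the absolute log2 fold change divided by the square root of the F statistic. The SE estimated by DESeq2 was larger for SRRM4 (0.141 against 0.0935) and for HNRNPA1 (0.0387 against 0.0336). The pipeline was tested on simulated data. Alternatives were other scalings and filters, DESeq2 1.42.0, a replicate block and leaving out each library.

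Full statistics are given for the 8 largest called changes per direction whose mean log2 CPM was 2 or more and whose groups did not overlap, for 8 genes of known interest, and for pairs with opposite calls. Up to 3 genes per direction were named from each context list, except that the list of SR kinases and import receptors is accounted for whole and U2AF1 is named, chosen after values were seen. Members and lists were chosen with earlier results of these data known. Protein identity of paralogues was not computed here. Some of the marker genes examined are not reported here.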

Additional observations from a re-analysis of the deposited data

How the results depend on the processing

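The 18 genes given with full statistics kept their direction and call in 119 of 126 values under other scalings, filters and tests and in 66 of 72 values that leave out a library. The exceptions were HNRNPUL1, PTBP1 and SRSF10, described above, and HNRNPA2B1, which was not called in any analysis and reversed to 0.0053 with no filter and ranged from -0.035 to 0.036 without 1 library. Calls over all members went to 15 higher and 8 lower under upper quartile scaling and to 8 lower when only library size was used, and between 22 and 28 members were called when 1 library was left out. The members' median log2 fold change was 0.046 under upper quartile scaling, 0.069 when only library size was used, 0.12 without a filter, 0.096 when every library needed 10 counts, and 0.105 to 0.121 without 1 library. In TPM, a scale added after seeing the data, it was 0.00069, beside -0.11 for all genes. Of nonsense-mediated decay genes 2 were called with DESeq2 and 1 to 4 without 1 library. Of m6A genes 5 were called with no filter, 3 with DESeq2 and 3 to 8 without 1 library. Apart from the scalings and filters themselves, the cause was not tested. With the replicate block, 8926 genes and 30 members were called (26 higher, 4 lower, adding SRSF6 and HNRNPK), but same-numbered libraries did not deviate together (correlation -0.0018), so the numbers do not pair the samples. With 2 libraries per group, changes near 0.1 on the log2 scale cannot be separated from the choice of scaling.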
